A study of Mus musculus with 4 samples.

Results

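Layer 6 is the deepest layer of the cerebral cortex, and 821 of 12994 capture spots under tissue were taken as layer 6 in 4 mouse brain sections. A spot is a small disc of the capture array that can hold several cells of different types, and its RNA is counted in unique molecular identifiers (UMI), 1 for each captured molecule. The spots were selected on measured values. Those with 2000 or more UMI were kept, which left 10948, and 5474 of these had a share of Slc17a7 UMI above the median of their section. Slc17a7 encodes the vesicular glutamate transporter of cortical excitatory neurons. The layer 6 spots were the top 15% of the Slc17a7-high spots in each section by the summed UMI share of Foxp2, Syt6, Hs3st4, Tle4 and Cplx3. They numbered 223 and 195 in the rNLS8 sections, against 195 and 208 in the control sections.

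The sections came from formalin-fixed, paraffin-embedded brains of mice aged 11 weeks, cut at 5 µm, 2 labelled rNLS8 and 2 labelled control. In rNLS8 mice the neurofilament heavy chain promoter drives a doxycycline-controlled activator in neurons, which switches on human TDP-43 lacking a working nuclear import signal once doxycycline is withdrawn. The labels give doxycycline withdrawal for all 4 sections, 3 weeks before the brains were taken, and name no genotype for the controls. They do not say that each section came from its own animal, so p-values reflect only how far these sections differ, which may be technical.

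Replicate 1 of each group is labelled female and replicate 2 male. In the layer 6 spots, 4 Y-linked genes summed to 134 and 129 unnormalized CPM (UMI of a gene or list for every 1000000 UMI of the sum) in rNLS8 replicates 1 and 2, against 0 and 105 CPM in control replicates 1 and 2. The RNA of rNLS8 replicate 1 thus went against its sex label, so results are also given without it. By these genes control replicate 1 was the only section without Y-linked RNA, so sex was not balanced between the groups. Leaving out rNLS8 replicate 1 does not remove this imbalance and leaves a single rNLS8 section. H2-D1, a class I antigen-presenting heavy chain, differed by replicate number, with 88 and 0 UMI in the rNLS8 layer 6 sums, against 11 and 0 UMI in those of control.

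Layer 6 holds corticothalamic neurons, which send feedback from the cortex to the thalamus and express Foxp2, Syt6, Tle4 and Hs3st4. Beneath them, next to the white matter, lies the thin layer 6b, a remnant of the subplate of the developing brain, marked by Cplx3, Ccn2 and Nxph4. Both populations are glutamatergic, and in a capture spot both are mixed with astrocytes, microglia and the myelinated axons that cross the layer.

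The layer 6 sums held 2141763 and 1551349 in rNLS8, against 1429660.0 and 1813815 in control. The median spot held 10736 and 8382 in rNLS8, against 7357 and 8393 in control, in UMI, from a median number of genes of 4312 and 3731 in rNLS8, against 3272 and 3639 in control. An exact two-sided permutation test of 2 sections against 2 cannot give a p under 0.333, and it gave p = 0.667 for UMI and p = 0.333 for genes. Counts of the 2 sections of a group differed by more than counting noise, with a chi-square per degree of freedom of 2.31 in rNLS8 and 5.24 in control.

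Selection rested on few molecules. A layer 6 spot held a median of 5 and 5 UMI of the selecting genes in rNLS8, against 4 and 4.5 in control. Spots with 1 or 2 such UMI made up 21.5% and 24.1% in rNLS8, against 19.5% and 29.3% in control. The last spots inside the threshold had selecting shares of 0.0384% and 0.0434% in rNLS8, against 0.0408% and 0.0444% in control. The first spots outside had 0.0384% and 0.0434% in rNLS8, against 0.0407% and 0.0443% in control, so the threshold fell on a continuum.

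Genes that the selection did not use were checked against the label. Nxph4, a secreted ligand of neurexins, led all of them by its lowest log2 ratio to the other Slc17a7-high spots, with ratios of 2.13 and 2.81 in rNLS8, against 1.92 and 2.12 in control. Ccn2, a secreted matrix protein of the subplate, followed with 2.26 and 2.59 in rNLS8, against 2.26 and 1.71 in control. The corticothalamic genes Rprm, a cell cycle inhibitor, and Ntsr1, a neurotensin receptor, had ratios of 0.78 to 1.23 and 0.66 to 0.87 over the 4 sections. Cux2, a transcription factor of the upper layers, had ratios below 0, of -0.87 and -0.81 in rNLS8, against -0.52 and -1.4 in control. The layer 6b and subplate list had 8 of 11 members higher in layer 6 spots in all 4 sections, and the corticothalamic list 15 of 19. Of the 15 measured upper-layer genes, 7 were lower in layer 6 spots in all 4 sections and 1 was higher. The median ratio of these 15 was -0.06 and -0.30 in rNLS8, against -0.47 and -0.73 in control. These are descriptions, since the same spots defined the group.

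**Figure D1:**
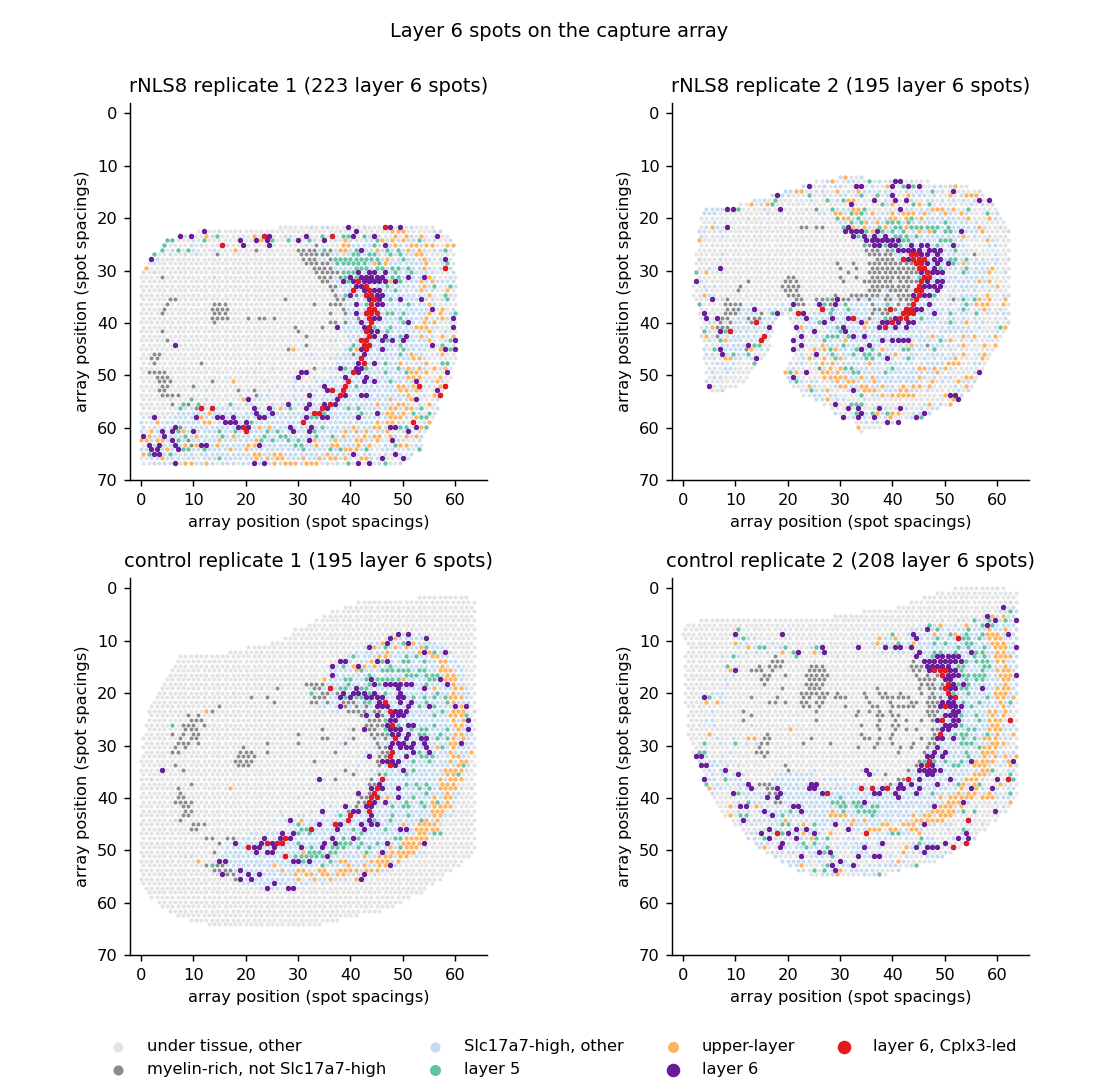
Position of the spots under tissue on the capture array (both axes in spot spacings) in the 4 sections, coloured by class as in the legend, with Cplx3-led layer 6 spots marked apart from the other layer 6 spots. The layer 6 spots form a band beside myelin-rich tissue with single spots scattered elsewhere, and from 65.9% to 71.3% of them have another layer 6 spot next to them.

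The layer 6 spots lay in a band along the white matter, as the map of the array shows. On average a layer 6 spot had, among its 6 neighbours, a number of layer 6 spots of 1.75 and 1.86 in rNLS8, against 1.703 and 1.79 in control. For the other Slc17a7-high spots this number was 0.542 and 0.447 in rNLS8, against 0.611 and 0.509 in control. The median layer 6 spot was 1.73 and 2.00 spot spacings from the nearest myelin-rich spot in rNLS8, against 2.65 and 2.65 in control. The other Slc17a7-high spots were 3.00 and 4.58 spacings away in rNLS8, against 5.57 and 5.20 in control. Thus, both in layer 6 and outside it, these medians were lower in rNLS8. The 25 myelin genes summed to 20834 and 17197 unnormalized CPM in rNLS8, against 18292 and 16643 in control in the layer 6 spots.

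The selecting genes came in different proportions. Cplx3, a complexin that binds the vesicle fusion machinery, gave a share of the selecting UMI of 37.7% and 37.1% in rNLS8, against 25.2% and 25.6% in control. Hs3st4, a heparan sulfate sulfotransferase, gave 18.7% and 24.96% in rNLS8, against 30.2% and 32.5% in control. Tle4, a transcriptional corepressor, gave 38.2% and 34.3% in rNLS8, against 41.97% and 37.6% in control. The groups did not overlap for Cplx3 and Hs3st4, and they overlapped for Tle4.

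Spots in which Cplx3 gave more than 50% of the selecting UMI, called Cplx3-led here, made up 21.97% and 18.97% in rNLS8, against 12.8% and 12.5% in control of the layer 6 spots. These shares are descriptions without a test, since the same UMI chose the spots. The authors' deposited table of Moran's I, a score of how far a gene's counts cluster in space, had Cplx3 at 0.193 and 0.186 in rNLS8, against 0.117 and 0.145 in control. The comparison of the groups was repeated in Cplx3-led spots alone and without them, a split chosen after the data were seen.

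**Figure D2:**
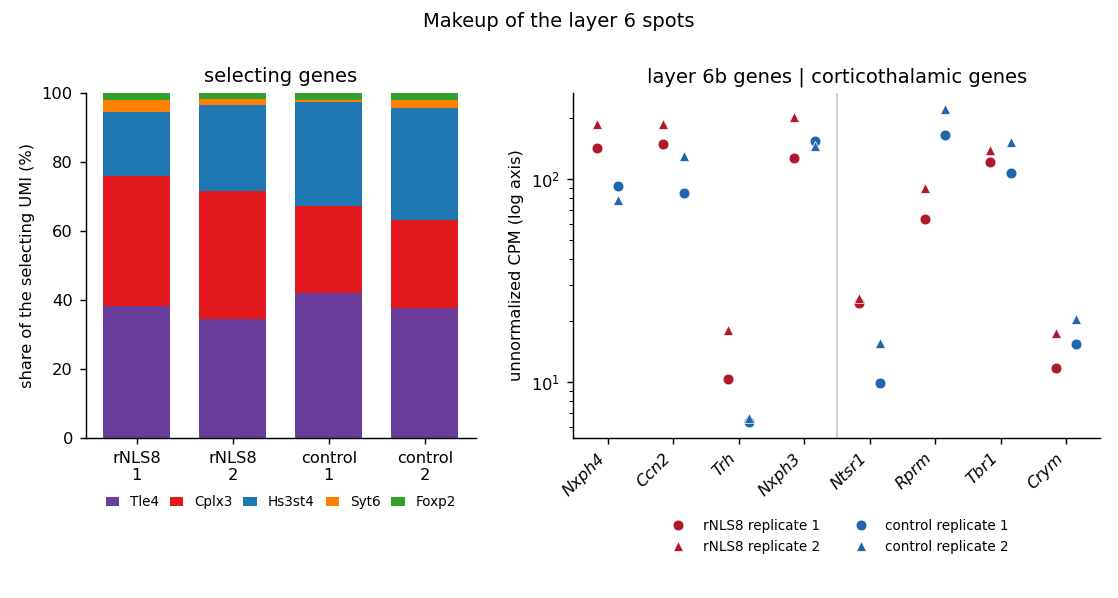
Share of the selecting UMI that came from each of the 5 selecting genes (percent) and unnormalized CPM (log axis) of 4 layer 6b and 4 corticothalamic genes, in the layer 6 spots of each section. Cplx3 gave 37.7% and 37.1% of the selecting UMI in the rNLS8 sections, against 25.2% and 25.6% in the control sections, and Rprm was lower in both rNLS8 sections.

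To compare rNLS8 with control, UMI were summed over the layer 6 spots of each section and the 6 selecting genes were left out. Levels of genes from here on are CPM after trimmed-mean normalization of the 4 sums. Effects are rNLS8 over control on the log2 scale, with a standard error (SE) derived from the test. Of 10047 genes tested, 82 passed edgeR's quasi-likelihood test (adjusted p under 0.05 after Benjamini-Hochberg), or 0.816%, with 36 higher (0.358%) and 46 lower (0.458%) in rNLS8. The smallest adjusted p was 0.0014, and 1518 genes had an unadjusted p under 0.05. In 24.6% of all tested genes both rNLS8 sections lay above both control sections, in 23.4% below, and in 48.1% either way. The median effect over all tested genes was 0.01.

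Leaving out a section moved this count, but each such fit has a single section in 1 group and takes its spread from the other group alone. Without rNLS8 replicate 1, the section that went against its sex label, 86 genes were called (0.835%), 0.456% higher and 0.379% lower, and 47 of the 81 main calls tested there were among them. The count was 57 without rNLS8 replicate 2, 743 without control replicate 1 and 2067 without control replicate 2. Cplx3-led spots alone gave 33 calls, with 27 of the 66 main calls tested there, and the other layer 6 spots gave 61, with 59 of the 82. Without a composition factor 29 genes were called, 62.1% of them higher, where the count above has 43.9% higher, and the median over all genes was 0.11. DESeq2 called 154 genes, 17.5% of them higher, and gave no adjusted p for 5259.

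Among the genes named in the text, the calls that did not hold without rNLS8 replicate 1 were those of Apobec3, Atp6v1d, Baiap2, Chgb, Gria3, Hpcal4, Irgc1, Nptx2, Nptxr, Npy, S100a6, Tmem255a and Tsnax (adjusted p from 0.0739 for Nptxr to 0.503 for Hpcal4). Without rNLS8 replicate 2 they were those of Apobec3, Atp6v1d, Baiap2, C1qa, C1qc, Calb1, Cbln4, Chgb, Cxcl10, Grn, Hpcal4, Irf7, Irgc1, Itpka, Lgals3bp, Ly86, Nptx2, Npy, Nrgn, Rgs4, Rtp4, S100a6, Sparc, Tsnax and Usp18 (adjusted p from 0.0507 for Nptx2 to 0.489 for Baiap2). Each of these kept its direction.

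The list with the most rises was the interferon response, the genes that cells switch on against viruses through transcription factors such as IRF9. Of 42 measured members of the list, 21 passed the filter on low counts. Where 0.358% of all tested genes rose, 8 of these 21 rose and none fell. Their median was 1.82, beside 0.01 for all genes, but a gene could enter the test through its level in rNLS8 alone, so this describes only those that entered. In the rNLS8 sums 2 and 2 of the 42 genes were at 0, against 13 and 8 in the control sums.

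Bst2 encodes tetherin, which holds budding virus at the cell membrane, and stood at 71.3 and 91.7 CPM in rNLS8, against 8.303 and 7.33 CPM in control (3.37, SE 0.281, adjusted p = 0.0014). The groups did not overlap, and both rNLS8 values were several times the control values. Oasl2, of the oligoadenylate synthetase family, had 36.3 and 49.99 CPM in rNLS8, against 6.04 and 4.51 CPM in control (3.03, SE 0.352, adjusted p = 0.00573). Irf9, the DNA-binding subunit of the interferon-activated complex, had 43.1 and 54.4 CPM in rNLS8, against 9.81 and 9.58 CPM in control (2.31, SE 0.287, adjusted p = 0.00687). Both were higher in both rNLS8 sections, and rNLS8 replicate 2 was the highest section for all 3 genes.

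Irf7, which amplifies interferon production, had 16.8 and 34.8 CPM in rNLS8, against 3.77 and 2.26 CPM in control (3.08, SE 0.538, adjusted p = 0.0349). Usp18, which limits interferon signalling, had 14.98 and 22.1 CPM in rNLS8, against 2.26 and 1.69 CPM in control (3.19, SE 0.522, adjusted p = 0.0291). Rtp4, Ifi27 and, outside the list, Apobec3, a deaminase that restricts retroviruses, rose by 2.48, 1.39 and 2.5. Cxcl10, a chemokine that attracts T cells, was counted in few molecules, 65 UMI in rNLS8 and 2 UMI in control, which is 26.6 times (95% interval from counting error alone 7.08 to 224). It was called (adjusted p = 0.044), though not without rNLS8 replicate 2.

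The interferon-activated complex binds DNA whose core reads GAAA, any 2 bases, then GAAA. That motif was searched on both strands of 300-base promoter windows from RefSeq (build GRCm38.p6, 250 bases before to 50 after the start of a gene). It was found in 3.44% of the 32851 windows and in 261 of the 7932 tested genes with a window (3.29%). Of the 36 genes that rose 26 had a window, and 5 of these held the motif (Apobec3, B2m, Bst2, Ctss and Cxcl10). Of the 46 that fell 30 had a window, and 2 held it (Atp6v1d and Itpka). Of the 8 interferon list genes that rose, 5 had a window, and 2 of these held the motif (Bst2 and Cxcl10). The windows of 3 of the risen genes that held the motif are given 5′ to 3′ with the motif in capitals. A match is a stretch of letters and not a known binding site. They lie at chr8:71537423-71537722 (minus strand) for Bst2, chr2:122147437-122147736 (plus strand) for B2m and chr5:92348840-92349139 (minus strand) for Cxcl10.
Bst2: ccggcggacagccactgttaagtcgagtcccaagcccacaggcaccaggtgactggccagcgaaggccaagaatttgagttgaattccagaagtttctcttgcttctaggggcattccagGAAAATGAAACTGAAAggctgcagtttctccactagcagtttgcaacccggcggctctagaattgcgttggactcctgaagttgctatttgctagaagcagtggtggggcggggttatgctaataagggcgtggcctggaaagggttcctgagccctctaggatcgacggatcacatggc
B2m: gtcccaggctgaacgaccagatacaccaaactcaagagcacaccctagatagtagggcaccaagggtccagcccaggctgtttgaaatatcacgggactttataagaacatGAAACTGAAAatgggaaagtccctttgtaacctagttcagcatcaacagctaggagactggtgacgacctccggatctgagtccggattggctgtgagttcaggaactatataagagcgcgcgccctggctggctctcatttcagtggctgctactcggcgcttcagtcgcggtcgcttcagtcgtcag
Cxcl10: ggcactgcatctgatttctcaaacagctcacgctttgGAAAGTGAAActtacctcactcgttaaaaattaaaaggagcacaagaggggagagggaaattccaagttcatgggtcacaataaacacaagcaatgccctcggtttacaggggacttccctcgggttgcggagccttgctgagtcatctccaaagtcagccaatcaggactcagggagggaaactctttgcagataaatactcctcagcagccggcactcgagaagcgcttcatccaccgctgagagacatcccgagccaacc
The run of capitals in Bst2 holds 2 overlapping copies, and the first motif of Bst2, B2m and Cxcl10 ended 120, 129 and 203 bases before the start site.

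Of the antigen-presentation and complement genes, 13 of 28 measured members were tested, 4 rose and none fell, where 0.358% of all tested genes rose. B2m, the shared small subunit of class I molecules, stood at 358 and 373 CPM in rNLS8, against 27.9 and 57.5 CPM in control (3.06, SE 0.265, adjusted p = 0.0014). C1qc and C1qa, subunits of the first complement component, rose by 1.45 (adjusted p = 0.0291) and 1.04 (adjusted p = 0.0335). C4b, which acts downstream of them, had 109 and 144 CPM in rNLS8, against 42.3 and 17.5 CPM in control (2.12, SE 0.323, adjusted p = 0.0236). Its near-identical copy C4a may share its signal, so this value is uncertain as to the gene. H2-K1, a class I heavy chain, had 8 and 9 UMI in rNLS8, against 3 and 1 UMI in control.

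Of the genes of disease-associated microglia, the state that microglia take on around damage, 26 of 35 measured were tested. Of these 5 rose (B2m, Ctsd, Ctss, Cst7 and Lgals3bp) and none fell, where 0.358% of all tested genes rose. B2m was already counted with the antigen-presentation genes. Without rNLS8 replicate 1, 9 of 27 tested rose. Ctss, a cathepsin of antigen-processing cells, had 187 and 225 CPM in rNLS8, against 42.3 and 78.4 CPM in control (1.74, SE 0.255, adjusted p = 0.0182). Cst7, an inhibitor of cathepsins, had 62 UMI in rNLS8 and 0 UMI in control, and thus entered the test through rNLS8 alone. It was at least 8.74-fold higher when each control sum is set to a floor of 3 counts. Tyrobp and Trem2, the signalling adaptor and receptor of this state, did not pass, at 1.86 (adjusted p = 0.0717) and 1.51 (adjusted p = 0.0707). Both had their rNLS8 values above their control values.

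Among genes of resting microglia, 1 of 19 tested rose, Sparc, a matrix protein that astrocytes and vessels also make (1.03, adjusted p = 0.0297). The median of the 19 was 0.41. In 10 of them both rNLS8 sections lay above both control sections, and in 1 below, where 24.6% and 23.4% of all tested genes did so. P2ry12, a purine receptor, had 16.8 and 31.6 CPM in rNLS8, against 18.1 and 19.2 CPM in control (0.34, SE 0.349, adjusted p = 0.689), and its groups overlapped. Tmem119 was at 0.39 (adjusted p = 0.723) and Cx3cr1, the fractalkine receptor, at 0.41 (adjusted p = 0.49). The 22 measured genes of the list summed to 1495 and 1641 unnormalized CPM in rNLS8, against 1379 and 1365 in control. The border macrophage and leukocyte list summed to 32.7 and 30.3 unnormalized CPM in rNLS8, against 8.39 and 20.4 in control, with 13 and 13 of its 20 genes at 0 in rNLS8, against 15 and 14 in control. In such sums more cells of a type and more RNA per cell cannot be told apart, and the part of these cells in the rises was not tested.

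Lysosomal genes rose for 3 of 36 tested members (Ctsd, Ctss and Grn) and fell for none, where 0.358% of all tested genes rose. Ctsd and Ctss were already counted with the microglia genes above. Ctsd, an aspartic protease of the lysosome, had 258 and 295 CPM in rNLS8, against 100.4 and 113 CPM in control (1.37, SE 0.173, adjusted p = 0.00765). Grn encodes progranulin, whose loss causes frontotemporal dementia in people, and had 129 and 149 CPM in rNLS8, against 69.4 and 60.3 CPM in control (1.1, SE 0.186, adjusted p = 0.03). Neither gene's groups overlapped. Grn was also the 1 call among 36 tested genes linked to TDP-43 or amyotrophic lateral sclerosis. Unc13a, a vesicle priming factor whose splicing TDP-43 controls in human cells, had 128 and 124 CPM in rNLS8, against 202 and 227 CPM in control (-0.77, adjusted p = 0.0662). Stmn2, a microtubule regulator likewise controlled in human cells, was at -0.44 (adjusted p = 0.251). Tardbp, which encodes TDP-43, had 12 and 19 UMI in rNLS8, against 0 and 0 in control, and did not enter the test. Whether this count reads the mouse gene, the human transgene or both was not tested. The 0 in control thus does not show that the mouse gene is absent there.

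Of 21 tested reactive astrocyte genes 4 rose (Gfap, C4b, Cxcl10 and S100a6) and none fell, where 0.358% of all tested genes rose. C4b and Cxcl10 were already counted in lists above. Gfap, the filament protein of astrocytes, had 586 and 841 CPM in rNLS8, against 186 and 157 CPM in control (2.05, SE 0.207, adjusted p = 0.00296). With each spot thinned to 2000 UMI, the share of layer 6 spots with a Gfap UMI was 59.2% and 76.4% in rNLS8, against 26.7% and 28.8% in control, and without thinning it was 88.8% and 95.9% in rNLS8, against 56.4% and 58.2% in control. The groups did not overlap on either measure. S100a6, a calcium-binding protein, rose by 1.06 but was not called without rNLS8 replicate 1 (adjusted p = 0.159). Vim and Serpina3n, other genes of reactive astrocytes, were at 0.64 (adjusted p = 0.212) and 1.13 (adjusted p = 0.197). General astrocyte markers had no call among 19 tested and a median of 0.06, and summed to 6782 and 7326 unnormalized CPM in rNLS8, against 6116 and 6646 in control.

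Thinned shares show how widely other rises were spread. B2m was found in a share of spots of 52.02% and 56.9% in rNLS8, against 4.62% and 12.5% in control, and Bst2 in 13.5% and 17.9% in rNLS8, against 3.08% and 0.481% in control. Cst7 was in 4.48% and 6.15% of spots in rNLS8 and in 0 of 195 and 0 of 208 spots in control, which allows shares of up to 1.54% and 1.44%. The 5 spots richest in Cst7 held 38.5% and 30.6% of its 26 and 36 UMI in rNLS8. The 5 richest in B2m held 8.76% and 8.98% of its 788 and 590 UMI. Such a share is larger when a gene has few UMI, so it cannot show which gene was more concentrated. Ttr, a gene of the choroid plexus that cortex lacks, was in 0% of thinned spots in all 4 sections. These limits cover counting error only.

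Of 20 tested genes of neuronal injury, 1 rose, where 0.358% of all tested genes rose. Tnfrsf12a, a receptor induced in injured neurons and regrowing axons, stood at 28.1 and 40.5 CPM in rNLS8, against 2.26 and 5.07 CPM in control (3.12, SE 0.423, adjusted p = 0.0111). Atf3, an injury-induced transcription factor, had 6 and 9 UMI in rNLS8, against 0 and 0 in control, and was not tested. Outside the lists, Pdrg1, a subunit of a prefoldin-like complex, had 345 and 403 CPM in rNLS8, against 125 and 103 CPM in control (1.72, SE 0.18, adjusted p = 0.00319). Nucb1, a calcium-binding protein of the Golgi, rose by 1.73 (adjusted p = 0.0465). Ly86, a partner of a Toll-like receptor family member, rose by 1.62 (adjusted p = 0.0447). Tmem255a rose by 1.5 (adjusted p = 0.044) but was not called when rNLS8 replicate 1 was left out (adjusted p = 0.164).

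**Figure D3:**
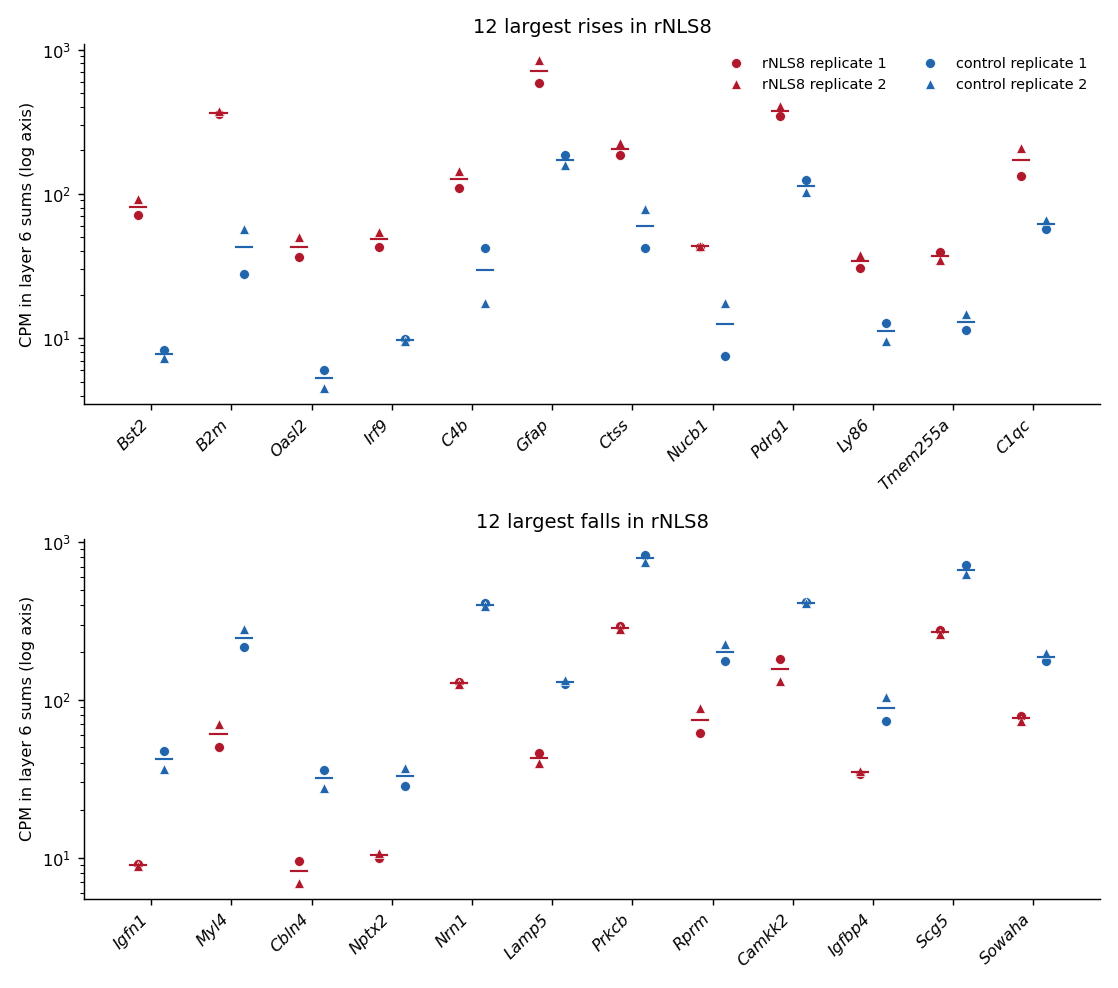
CPM after trimmed-mean normalization (log axis) in the layer 6 sums, for 12 called genes that rose most and 12 that fell most with a mean of at least 20 CPM and no overlap between groups. Each point is a section and lines are group means. Bst2 lies at 71.3 and 91.7 CPM in rNLS8, against 8.30 and 7.33 CPM in control.

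Among the genes that mark layer 6 itself, Rprm was the 1 that fell. It had 61.3 and 88.6 CPM in rNLS8, against 177 and 227 CPM in control (-1.44, SE 0.219, adjusted p = 0.0234), with both rNLS8 sections below both control sections. The effect was -1.56 (adjusted p = 0.026) in Cplx3-led spots, -1.34 (adjusted p = 0.0426) in the others and -1.19 (adjusted p = 0.0487) without rNLS8 replicate 1. After thinning, the share of layer 6 spots with an Rprm UMI was 10.8% and 15.9% in rNLS8, against 23.6% and 27.4% in control. The other 15 tested corticothalamic genes did not pass, and the median of the 16 was -0.14. Tbr1, a transcription factor that specifies corticothalamic neurons, had 118 and 136 CPM in rNLS8, against 115 and 154 CPM in control (-0.10, SE 0.195, adjusted p = 0.859). Ntsr1 had 23.6 and 25.3 CPM in rNLS8, against 10.6 and 15.8 CPM in control (0.86, SE 0.317, adjusted p = 0.228). Its rNLS8 values were above its control values, where those of Rprm were below.

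Layer 6b genes had no call among 8 tested members, with a median of 0.48. Nxph4 had 138 and 183 CPM in rNLS8, against 99.6 and 80.1 CPM in control (0.84, SE 0.205, adjusted p = 0.0933). Ccn2 had 144 and 183 CPM in rNLS8, against 92.1 and 133 CPM in control (0.52, SE 0.213, adjusted p = 0.276). In both genes the rNLS8 values lay above the control values, as in 6 of the 8 tested, where 24.6% of all tested genes did so. The larger share of Cplx3-led spots in rNLS8 comes from the UMI that chose the spots, so it is no support for these values. Ccn2 was at 0.05 and Nxph4 at 0.55 in Cplx3-led spots alone, and at 0.41 and 0.59 in the others. In spots with at least 2 layer 6 neighbours, 43.5% to 48.7% of the layer 6 spots by section, Nxph4 was called, at 1.06 (adjusted p = 0.0409). This is 1 of several alternative settings, and Nxph4 was not called in the main test, in Cplx3-led spots or in the others.

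Of 13 tested genes of the layers above, 2 fell in the layer 6 spots, where 0.458% of all tested genes fell. The median of the 13 was -0.10. Lamp5, a vesicle membrane protein of upper-layer neurons and of some interneurons, had 45.8 and 39.9 CPM in rNLS8, against 125 and 134 CPM in control (-1.59, SE 0.187, adjusted p = 0.00573). Calb1, a calcium buffer of upper-layer neurons, had 129.8 and 86.1 CPM in rNLS8, against 311 and 213 CPM in control (-1.26, SE 0.239, adjusted p = 0.0453). Both were lower in both rNLS8 sections.

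Among called genes with a mean of at least 20 CPM, Igfn1 and Myl4 fell most. Igfn1 had 9.08 and 8.86 CPM in rNLS8, against 47.6 and 36.6 CPM in control (-2.21, SE 0.297, adjusted p = 0.011). Myl4, a myosin light chain, had 50.4 and 70.9 CPM in rNLS8, against 217 and 279.6 CPM in control (-2.05, SE 0.217, adjusted p = 0.00319). For both, the groups lay further apart than the sections of either group. Of the sparser genes, Muc3a fell by 2.13, with 13 and 11 UMI in rNLS8, against 45 and 41 UMI in control. Irgc1 had 3 UMI in rNLS8 and 30 UMI in control, a ratio per depth of 0.0819 (95% interval from counting error alone 0.0160 to 0.263), and was called (adjusted p = 0.0475). Igfbp4, which binds insulin-like growth factors, and Sowaha fell by 1.37 and 1.29 on the log2 scale.

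Nrn1, Cbln4, Nptx2 and Nptxr also fell, and are named together though they belong to no list of their own. Nrn1 encodes neuritin, a membrane-anchored protein that promotes neurite growth and synapse maturation, and had 131 and 127 CPM in rNLS8, against 408 and 394 CPM in control (-1.64, SE 0.16, adjusted p = 0.0029). Cbln4, a cerebellin that links neurexins to receptors across the synapse, had 9.53 and 6.96 CPM in rNLS8, against 36.2 and 27.6 CPM in control (-1.91, SE 0.332, adjusted p = 0.0349). Each gene was lower in both rNLS8 sections than in either control section. Nptx2, a pentraxin that gathers AMPA receptors, fell by 1.68 (adjusted p = 0.0422), and its membrane-bound partner Nptxr fell by 1.17 (adjusted p = 0.038). Nptx2 was the 1 call among 30 tested activity-regulated genes and was not called when either rNLS8 section was left out (adjusted p = 0.0838 without replicate 1).

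Calcium-dependent kinases and calcium-binding proteins held 5 falls (Prkcb, Camkk2, Itpka, Calb1 and Hpcal4) and no rise among 32 tested members. Their median was -0.37, and 0.458% of all tested genes fell. Calb1 was already counted with the upper-layer genes. Prkcb, a protein kinase C that calcium and diacylglycerol activate, had 293 and 281 CPM in rNLS8, against 829.6 and 748 CPM in control (-1.46, SE 0.157, adjusted p = 0.00328). Camkk2, which activates other calmodulin-dependent kinases, had 182 and 132 CPM in rNLS8, against 418 and 409 CPM in control (-1.39, SE 0.186, adjusted p = 0.011). Both were lower in both rNLS8 sections. Itpka, an inositol phosphate kinase of dendritic spines, fell by 1.04, and Hpcal4, a neuronal calcium sensor, by 0.89, with no call for Hpcal4 without rNLS8 replicate 1 (adjusted p = 0.503). Camk2a, the abundant kinase of spines, was at -0.33 (adjusted p = 0.437).

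Of 33 tested presynaptic vesicle genes 1 fell and none rose, where 0.458% of all tested genes fell. The median of the 33 was -0.37. Snap25, a membrane fusion protein, had 2888 and 2755 CPM in rNLS8, against 4513 and 5001 CPM in control (-0.75, adjusted p = 0.0661). In 21 of the 33 both rNLS8 sections lay below both control sections, where 23.4% of all tested genes did.

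Of 25 tested postsynaptic genes 2 fell, where 0.458% of all tested genes did. Nrgn, a calmodulin-binding protein of spines, had 711 and 513 CPM in rNLS8, against 1173 and 1327 CPM in control (-1.03, SE 0.187, adjusted p = 0.0431). Baiap2, a scaffold that links receptors to actin, fell by 0.82 (adjusted p = 0.044) and was not called when either rNLS8 section was left out (adjusted p = 0.258 without replicate 1). Gria3, a subunit of the AMPA receptor, was the 1 call among 25 glutamate receptor genes, at -1.12 (adjusted p = 0.0291), and lost it without rNLS8 replicate 1 (adjusted p = 0.124). The 13 GABA receptor genes, 35 potassium channel genes and 25 sodium, calcium and HCN channel genes tested had no call.

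Peptides and their processing fell in 3 of 26 tested genes, where 0.458% of all tested genes fell. Scg5, the chaperone of a prohormone convertase, had 276 and 261 CPM in rNLS8, against 711 and 629.7 CPM in control (-1.32, SE 0.159, adjusted p = 0.00648). Chgb, a granin of dense-core vesicles, fell by 0.96 (adjusted p = 0.0291), and Npy, neuropeptide Y of interneurons, by 0.92 (adjusted p = 0.0297). Neither was called without rNLS8 replicate 1 (adjusted p = 0.114 for Chgb and adjusted p = 0.226 for Npy). Sst, the peptide of another interneuron class, had 728 and 813 CPM in rNLS8, against 835 and 858 CPM in control (-0.14, adjusted p = 0.721). Nefl, the light neurofilament of axons, had 263 and 246 CPM in rNLS8, against 629 and 594 CPM in control (-1.26, SE 0.155, adjusted p = 0.00687), and was the 1 call among 23 axon cytoskeleton genes. A Nefl UMI was found in a share of thinned spots of 38.6% and 35.4% in rNLS8, against 66.7% and 64.4% in control, with no overlap between groups.

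Marker lists of other cells are set beside these falls. The 21 excitatory neuron genes summed to 9189 and 8989 unnormalized CPM in rNLS8, against 11299 and 11885 in control, and 1 of 19 tested (Nrgn) fell. The 18 striatal genes summed to 3388 and 1774 unnormalized CPM in rNLS8, against 2998 and 3699 in control, lowest in rNLS8 replicate 2, and none of 13 tested was called (median -0.59). Without rNLS8 replicate 1, however, 4 of the 13 striatal genes were called lower, with a median of -1.19. The 12 genes of meninges and choroid plexus summed to 1099 and 922 unnormalized CPM in rNLS8, against 849.9 and 598 in control, with 6 tested and none called. The 25 myelin genes had no call and a median of 0.19. Of 22 tested inhibitory neuron genes 1 fell, Npy. No gene was called among the tested members of the lists for layer 5 (14), claustrum (6), oligodendrocyte precursors (12) and endothelial and mural cells (14). The integrated stress and unfolded protein response (29), cholesterol synthesis (21) and respiratory chain (30) lists had no call. Nor had that of signalling genes of corticothalamic and deep-layer neurons (28). In 5 of the 6 claustrum genes (median -0.56) both rNLS8 sections lay below both control sections. So they did in 7 of the 14 layer 5 genes (median -0.50), where 23.4% of all tested genes did. In neither list did a gene have both rNLS8 sections above both control sections. Without rNLS8 replicate 1, the layer 5, potassium channel and sodium, calcium and HCN channel lists had 1 lower call each and the stress list 2 higher calls, and the neuronal injury and TDP-43-linked lists had 2 higher calls each. The presynaptic and inhibitory neuron lists then had none. The part of these mixtures in the neuronal falls was not tested.

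**Figure D4:**
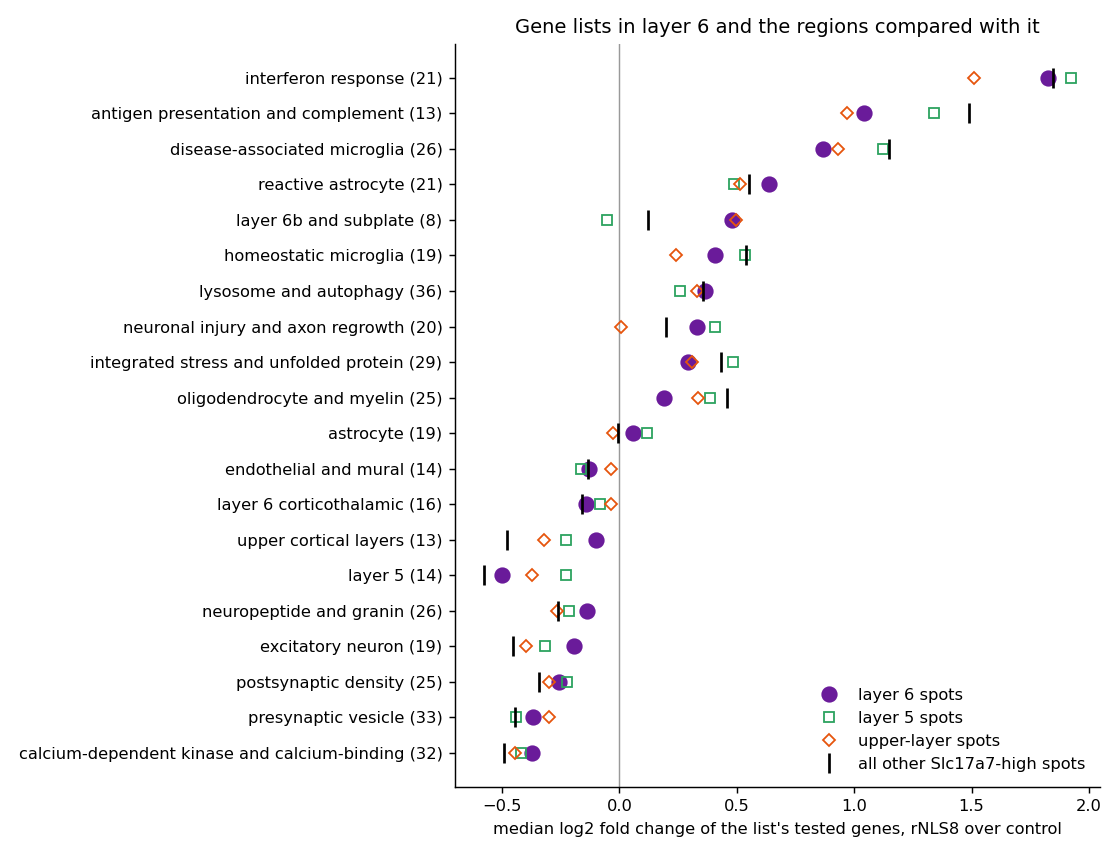
Median effect of rNLS8 over control (log2, x axis) of the tested genes of 20 gene lists (rows), in layer 6 spots and in the 3 groups of spots set beside them, as marked in the legend. All 4 medians come from the same sections and describe only genes that passed the filter. Interferon genes had medians of 1.82 in layer 6, 1.92 in layer 5, 1.51 in the upper layers and 1.85 in the other Slc17a7-high spots.

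Whether the rNLS8 effect in layer 6 differed from that elsewhere was tested directly, on sums of both kinds of spot with the section as a block. Upper-layer and layer 5 spots were chosen as the layer 6 spots were, with Cux2, Calb1, Lamp5, Rasgrf2 and Otof for the upper layers and Parm1, Deptor, Rbp4 and Fezf2 for layer 5. On their own, the 4653 other Slc17a7-high spots had 37 calls of 12426 genes (0.298%, with 0.153% higher and 0.145% lower). The 748 upper-layer spots had 299 calls of 9492 (3.15%, with 1.04% higher and 2.11% lower). The 624 layer 5 spots had 179 of 9421 (1.9%, with 0.669% higher and 1.23% lower). All of them share the sections of layer 6, so these counts are not independent.

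Few effects passed this test. Against the other Slc17a7-high spots edgeR called 4 of 12082 genes (0.0331%, with 0.00828% more positive and 0.0248% more negative in layer 6), and 0 of the 82 layer 6 calls. Against the upper layers it called 28 of 10230 (0.274%, with 0.137% each way), and 4 of the 80 layer 6 calls tested. Against layer 5 it called 3 of 10188 (0.0294%, with 0.00982% more positive and 0.0196% more negative), and 1 of the 82. At an unadjusted p under 0.05 there were 679, 799 and 582 genes.

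Tsnax and Rgs4 fell less in layer 6 than in the upper layers. Tsnax, a partner of translin in RNA binding, was at -1.04 in layer 6 and -1.9 in the upper layers, a difference of 0.84 (SE 0.16, adjusted p = 9.12e-04). It had 87.5 and 87.8 CPM in rNLS8 layer 6, against 192 and 173 CPM in control layer 6. In the upper layers it had 81.3 and 82.6 CPM in rNLS8, against 338 and 277 CPM in control. The rNLS8 sections thus had similar levels in both places, while the control sections were higher in the upper layers. Rgs4, which shortens G protein signals, differed by 0.43 (SE 0.0916, adjusted p = 0.00748).

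B2m differed the other way, with a larger rise in layer 6. It was at 3.06 in layer 6 and 2.32 in the upper layers, a difference of 0.73 (SE 0.184, adjusted p = 0.0488). The rNLS8 levels were 357 and 369.9 CPM in layer 6 and 339 and 377 CPM in the upper layers. Control levels were 28.4 and 57.6 CPM in layer 6 and 55.2 and 86.8 CPM in the upper layers.

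Camk2n1, an inhibitor of calmodulin-dependent kinase II, was at -0.70 in layer 6, where it did not pass (adjusted p = 0.0749), and at -1.32 in the upper layers, a difference of 0.62 (SE 0.0806, adjusted p = 5.47e-08). Its levels were 474 and 544 CPM in rNLS8 layer 6, against 900.4 and 784 CPM in control layer 6. In the upper layers they were 711 and 929 CPM in rNLS8, against 1992 and 2112 CPM in control. The groups lay further apart in the upper layers.

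Nnat differed from both neighbours. It encodes neuronatin, a small membrane protein of the endoplasmic reticulum. Nnat had 349.9 and 423 CPM in rNLS8 layer 6, against 479.8 and 319 CPM in control layer 6, where the groups overlapped (-0.02, adjusted p = 0.974). In the upper layers it had 316 and 413 CPM in rNLS8, against 219.9 and 189 CPM in control (0.84, adjusted p = 0.0299). The difference was -0.84 (SE 0.115, adjusted p = 1.43e-07) from the upper layers and -0.65 (SE 0.101, adjusted p = 1.67e-04) from layer 5.

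Gfap rose less in layer 6 than in layer 5, where it was at 2.73, a difference of -0.68 (SE 0.129, adjusted p = 0.00801). The rNLS8 levels were 587 and 838 CPM in layer 6 and 482 and 679 CPM in layer 5. Control levels were 187 and 157 CPM in layer 6 and 93.5 and 81.3 CPM in layer 5, so that layer 6 was higher in every section. Pak1, a kinase of the actin cytoskeleton, differed from layer 5 by 0.44 (SE 0.0868, adjusted p = 0.0132) and was not called within layer 6 (-0.31, adjusted p = 0.42).

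**Figure D5:**
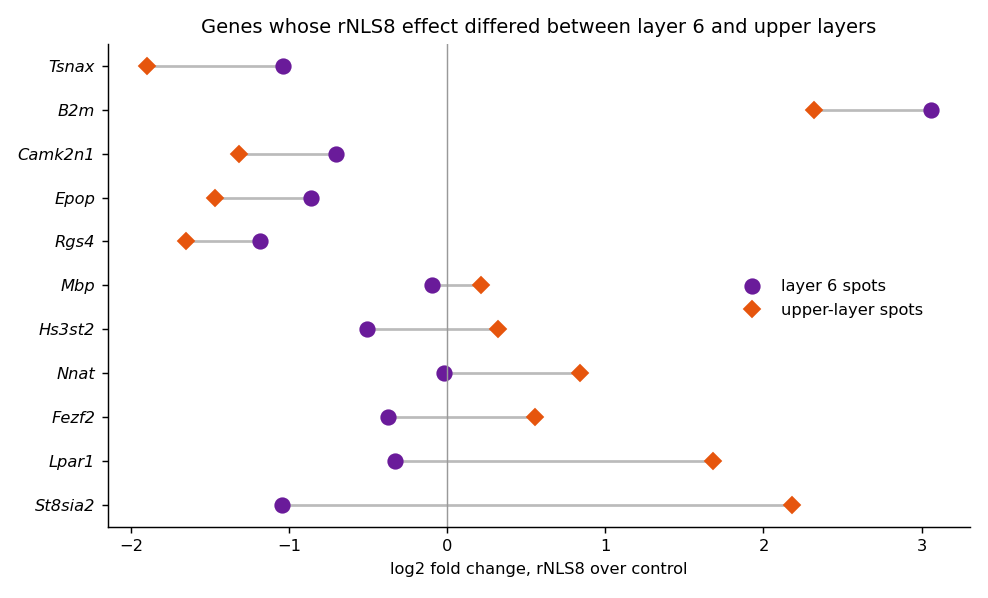
Effect of rNLS8 over control (log2, x axis) in layer 6 spots and in upper-layer spots for 11 genes whose effect differed between them. Tsnax, Camk2n1, Epop and Rgs4 lie further below 0 in the upper layers, and B2m lies further above 0 in layer 6.

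Several of these differences depended on 1 section. Camk2n1 and Nnat still differed from the upper layers without each section in turn (adjusted p up to 0.00349 and 0.0171). B2m did not without any 1 of the 4 sections (adjusted p from 0.157 to 0.443), nor Tsnax without rNLS8 replicate 1 or 2 (0.0683 and 0.0857). Rgs4 passed without control replicate 2 but in none of the other 3 fits that left out a section (0.111 to 0.653). From layer 5, Gfap did not pass without control replicate 1 or 2 (0.231 and 0.21), Nnat without control replicate 1 (0.196), and Pak1 without rNLS8 replicate 2 or control replicate 1 (0.642 and 0.373).

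Mbp and Mobp had lower effects in layer 6 than in the other Slc17a7-high spots. The differences were -0.25 (SE 0.0463, adjusted p = 0.0234) for Mbp and -0.30 (SE 0.0569, adjusted p = 0.0343) for Mobp, both of the myelin sheath and neither called within layer 6. Mbp had 10008 and 8453 CPM in rNLS8 layer 6, against 10983 and 9019.7 CPM in control layer 6. In the other spots it had 7079.7 and 5643 CPM in rNLS8, against 6678 and 4925 CPM in control. The groups overlapped in both places. Neither difference passed without control replicate 2 (adjusted p = 0.584 for Mbp and 0.636 for Mobp), nor that of Mobp without rNLS8 replicate 1 (0.0982). The other spots were also nearer to myelin-rich tissue in rNLS8, whose part was not tested.

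Among genes that mark layer 6, 1 of 16 corticothalamic and 1 of 8 layer 6b genes differed from the upper layers, both named here after their values were seen. Fezf2, a transcription factor of deep-layer projection neurons, had 87.02 and 119.7 CPM in rNLS8 layer 6, against 122 and 147 CPM in control layer 6. In the upper layers it had 35.5 and 58.9 CPM in rNLS8, against 31.1 and 32.1 CPM in control, a difference of effects of -0.95 (SE 0.24, adjusted p = 0.0488). For Lpar1, a lysophosphatidic acid receptor that myelinating oligodendrocytes also express, the difference was -2.04 (SE 0.517, adjusted p = 0.0492). It had 19.5 and 11.3 CPM in rNLS8 layer 6, against 18.4 and 21.5 CPM in control layer 6. In the upper layers it had 18.95 and 10.6 CPM in rNLS8, against 6.02 and 3.65 CPM in control. Both genes were higher in both rNLS8 sections in the upper layers, Lpar1 overlapped in layer 6, and neither was called in layer 6 or in the upper layers on its own. Without any 1 of the 4 sections neither difference passed (adjusted p from 0.0758 to 0.653 for Fezf2 and 0.116 to 0.703 for Lpar1).

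The differences of Rprm, Nxph4 and Ccn2 did not pass. Rprm was at -1.41 in the other Slc17a7-high spots, a difference of -0.09 (SE 0.138, adjusted p = 0.972), and differed from the upper layers by -0.74 (SE 0.286, adjusted p = 0.444). Nxph4 differed from the other Slc17a7-high spots by 0.40 (SE 0.18, adjusted p = 0.861) and Ccn2 by 0.53 (SE 0.155, adjusted p = 0.651). These p-values do not show that the effects were alike.

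Within layer 6, 3 of 9235 genes had an effect that differed between Cplx3-led and other spots (0.0325%, with 0.0217% more positive and 0.0108% more negative in Cplx3-led spots), and none of the 80 layer 6 calls tested was among them. Ptgds, a prostaglandin D synthase of meninges and oligodendrocytes, had 898 and 769 CPM in rNLS8 Cplx3-led spots, against 411 and 421 CPM in those of control. The other layer 6 spots had 1002 and 807 CPM in rNLS8, against 887 and 564 CPM in control, a difference of effects of 0.64 (SE 0.139, adjusted p = 0.0121). The groups were apart in the Cplx3-led spots and overlapped in the others. Nnat differed by -0.80 (SE 0.167, adjusted p = 0.00906). Bst2 was at 2.4 in Cplx3-led spots and 3.61 in the others, a difference that did not pass (adjusted p = 0.982).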

How the data were processed

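Spatial expression was measured on capture arrays in 2 rNLS8 and 2 control sections. The deposited UMI counts per gene and spot were made by the authors with Space Ranger 2.1.0, per the file headers, against mm10, per the submitters' processing notes. The Moran's I score per gene and section is the authors', as deposited, and was used only as a description. From the raw counts, spots were selected and summed per section with Python 3.11.15, and sums were tested with edgeR 4.0.16 (trimmed-mean factors, low-count filter, quasi-likelihood test, Benjamini-Hochberg) in R 4.3.3. SE is the effect over the square root of F. DESeq2 1.42.0 and limma 3.58.1 were alternatives. Differences between regions were interaction terms with the section as a block. Scripts were tested on simulated data. Section totals ranged from 17627577 to 28056089 UMI. Intervals cover counting error only. The members and the 36 gene lists were chosen with earlier results of these data known. Named genes were the 12 largest rises and 12 largest falls among calls with a mean of at least 20 CPM and no overlap, called or most abundant list members, the called differences with the 8 smallest p, and leading genes. Gene positions and promoters came from RefSeq (GRCm38.p6). Etv1, a layer 5 marker, was not used here. Doublets were not called, since spots are not cells. Some genes that passed or missed a test are counted but not reported by name here.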

Additional observations from a re-analysis of the deposited data

Results flagged for a closer look

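The results listed are those whose rNLS8 effect differed between groups of spots in a test of the difference itself (edgeR interaction term, adjusted over all genes). Against the other Slc17a7-high spots, layer 6 differed by -0.25 for Mbp, -0.30 for Mobp and 0.42 for Pak1, which did not pass without rNLS8 replicate 2 or control replicate 1 (adjusted p = 0.568 and 0.056). Against the upper layers, the effect was less negative in layer 6 for Camk2n1 (0.62), Epop (0.61), Tsnax (0.84) and Rgs4 (0.43), and more positive for B2m (0.73). It was lower in layer 6 for Nnat (-0.84), Hs3st2 (-0.84), Mbp (-0.31), Fezf2 (-0.95) and Lpar1 (-2.04). That of Mbp passed only when rNLS8 replicate 2 was the section left out (0.0785 to 0.298 in the other 3 fits).

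St8sia2, a polysialyltransferase, had the largest of these differences from the upper layers, at -3.20. It was counted at 6.799 and 3.13 CPM in rNLS8 layer 6, against 13.8 and 8.47 CPM in control layer 6. In the upper layers it had 17.1 and 17.99 CPM in rNLS8, against 4.02 and 3.65 CPM in control. The groups thus lay in opposite order in the 2 places. The difference did not pass without rNLS8 replicate 2 or control replicate 1 (0.149 and 0.131).

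Against layer 5, the differences were -0.65 for Nnat, -0.68 for Gfap and 0.44 for Pak1. Between Cplx3-led and other layer 6 spots they were -0.80 for Nnat and 0.64 for Ptgds.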

How the results depend on the processing

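The count of 82 genes called in layer 6 became 14 with 20 or more UMI required in every section, 39 with spots of 500 or more UMI, 33 in Cplx3-led spots, 154 with DESeq2 and 20 with Slc17a7 above the 70th percentile. It became 51 with selecting genes at equal weight, 28 without the Slc17a7 filter, 29 without a composition factor, 566 without a filter on low counts, 30 with the top 10% of spots and 38 with the top 25%. Leaving out a section gave 57 to 2067 calls. Every one of the 82 genes tested kept its direction under each of these. Among the named genes, B2m, Bst2, Camkk2, Gfap, Irf9, Myl4, Nefl, Nrn1, Oasl2, Pdrg1, Prkcb and Scg5 were called under every alternative that gave them an adjusted p. The 4 differences from the other Slc17a7-high spots became 7 without the low-count filter, 13 with the top 10%, and 1 to 21 without a section. The 28 from the upper layers became 9 to 17 without a section. The 3 from layer 5 became 11 without the filter, 7 with the top 10%, and 3 to 6 without a section. The cause of these changes was not tested. A fit with the replicate block called 103 genes, 75 of the 82 among them. By label, sections of the same number share only that number and a sex. H2-D1 also went with the number, and Y-linked RNA differed between the replicate 1 sections. The correlation across genes of deviations from the group mean, rNLS8 replicate 1 with control replicate 1, was -0.049. With 2 sections a group, counts of few UMI per spot limit what can be called.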
